A study of Canis lupus familiaris with 34 samples.

Results

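Canine osteosarcoma cell lines and tumour tissues were profiled on Affymetrix Canine_2 expression arrays, and the lines derived from metastases are described here beside the lines derived from primary tumours. The metastatic lines were chosen by their source label, which named 3 of the 34 arrays. Metastatic line 1 came from a male Rhodesian Ridgeback aged 2.39 at diagnosis with the treatment label PALL and a survival label of 0.36. Metastatic line 2 came from a female Rottweiler aged 5 with neither label, and metastatic line 3 from a male Rottweiler aged 6.31 with the treatment label SOC and a survival label of 1.97. The labels spell out neither treatment abbreviation and give no unit for age or survival, no site of metastasis and no passage number. Per the growth protocol, the lines were primary tumour cells or cultured cells kept cryopreserved, without saying which line was which. The 25 arrays of primary lines covered 24 dogs after both line arrays of 1 dog were averaged. Of these primary lines 10 came from Rottweilers and 7 from Golden Retrievers, and 13 came from males and 10 from females, castrated and spayed dogs included. The other breed labels were Alaskan Malamute, German Shepherd (also spelled German Shephard), Great Pyrenees, Mastiff, Saint Bernard and unknown. The age label of 22 primary lines ran from 2 to 11.19 with a median of 7.97, and the survival label of 21 ran from 0.1 to 64.01 with a median of 4.96. The treatment label was SOC in 14 primary lines, some marked as incomplete, AMP in 3, PALL in 2, ABX in 1 and missing in 4. Metastatic lines 1, 2 and 3 were thus all from dogs younger than the primary median, and age was not a term in any fit. The other 6 arrays held snap-frozen primary tumour tissue. Each metastatic line was 1 culture of 1 dog hybridised once, and no metastatic line was labelled as sharing a dog with a primary line, so host and site of origin cannot be told apart within the 3 lines. Primary lines are called by their number in accession order (1 to 25, without 22, the array averaged into another).

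Osteosarcoma is a malignant tumour of bone-forming mesenchymal cells, frequent in large dog breeds, that spreads mostly to the lung. A line grown from a metastasis holds tumour cells that left the bone, grew elsewhere and were then selected again by culture. Neuropilin 1, the product of NRP1, is a surface co-receptor for class 3 semaphorins and for vascular endothelial growth factor. MEIS1 encodes a homeobox cofactor of HOX proteins, and OCA2 a melanosome membrane protein needed for pigment formation.

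All values below are log2 of the deposited GCRMA intensity, and differences are metastatic minus primary lines on that scale. A level under log2 5 is treated as dim, since a probe set was kept only where it passed log2 5 on at least 3 of 33 columns. The kept probe sets gave 7812 genes, each measured by 1 probe set. Their median difference was 0.05, so the groups were centred nearly alike. Arrays of bulk cultures cannot tell fewer expressing cells from less RNA per cell.

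The 3 metastatic lines each correlated more highly with a primary line than with another metastatic line. Over the 7812 genes, metastatic lines 1 and 2 correlated at 0.870, lines 1 and 3 at 0.882, and lines 2 and 3 at 0.920, against a median of 0.889 over the 276 pairs of primary lines. Genes share arrays and are not independent, so these correlations are descriptions. Metastatic line 2 correlated with primary line 8 at 0.978, the 2nd highest value among all 351 pairs of lines, and 101 genes differed between them by more than 2. Metastatic line 3 correlated with primary line 7, from another Rottweiler, at 0.969, and 179 genes differed by more than 2. Metastatic line 1 had no such partner, and its highest correlation was 0.889, with primary line 16. For comparison, both line arrays from 1 dog, which carried different title prefixes, correlated at 0.920.

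Metastatic line 1 left the primary range in the most genes of the 3. It lay above all 24 primary lines in 692 genes (8.86%) and below all of them in 835 (10.7%), together 19.5% of the genes tested. Metastatic line 2 lay above all of them in 92 genes (1.18%) and below all in 56 (0.717%), together 148 (1.89%). Metastatic line 3 lay above all in 190 genes (2.43%) and below all in 139 (1.78%), together 329 (4.21%). When each primary line was set against the other 23, the count ran from 116 to 2506 genes with a median of 598.5. Metastatic lines 2 and 3 thus left the range in fewer genes than the median primary line did, though against 24 lines in place of 23, which by itself leaves fewer genes outside.

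**Figure D1:**
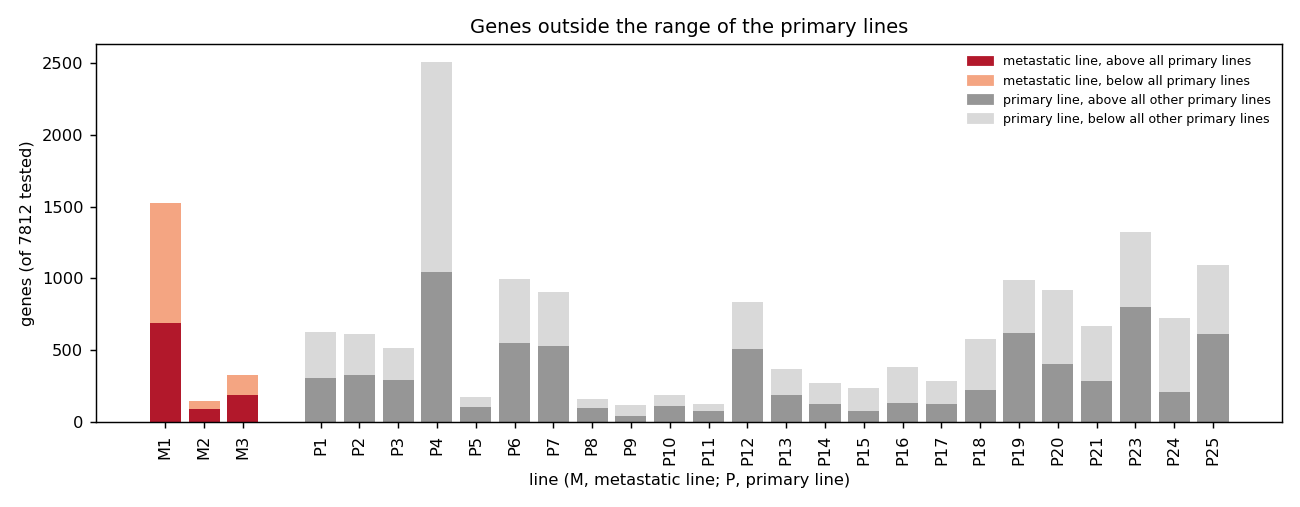
Number of genes, of 7812, in which each line lay above or below every primary line it was compared with. Metastatic lines (M, left) were set against 24 primary lines and each primary line (P, right) against the other 23; dark bars count genes above all and light bars genes below all. Metastatic line 1 reached 1527 genes, metastatic lines 2 and 3 reached 148 and 329, and primary line 4 reached 2506.

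One control of RNA quality, that of GAPDH, set metastatic line 1 apart, and that of actin did not. The 3′ minus 5′ difference of the GAPDH control probe sets, which grows as RNA breaks down or is copied less far, was 5.92, 3.12 and 3.21 in metastatic lines 1, 2 and 3. In primary lines it ran from 2.46 to 4.17 with a median of 3.04. The mean of the metastatic lines was 4.08 ± 1.59 (SD, n = 3) against 3.09 ± 0.31 in primary lines (SD, n = 24), and an exact two-sided permutation test gave p = 0.0287. Without metastatic line 1 the difference was 0.08, with p = 0.62 by the same exact test. The same difference for actin was 6.71, 4.16 and 4.29 in the metastatic lines, inside the primary range of 3.05 to 6.87. With the GAPDH difference as a covariate, a fit added after seeing the data, the genes at an unadjusted p under 0.05 by limma numbered 53, against 531 without it. Metastatic line 1 alone stood outside the primary range of that covariate. The fit thus cannot tell RNA quality apart from other traits of line 1. The main results are therefore also given without metastatic line 1. All 3 metastatic lines shared title prefix 2 with 19 primary lines, so that possible batch holds both groups.

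COL1A1, VIM and SPARC were at primary-line levels in all 3 metastatic lines, but the identity list as a whole was not. RUNX2, IBSP and BGLAP were dim in them. The mean over the 15 tested osteosarcoma and mesenchymal identity genes lay above 1, 19 and 4 of 24 primary lines in metastatic lines 1, 2 and 3. COL1A1, the main chain of bone collagen, was at 13.53, 13.62 and 13.40 in metastatic lines 1, 2 and 3, inside the primary range of 11.88 to 14.08. VIM, the mesenchymal intermediate filament, was at 14.51, 14.69 and 14.61, also inside the primary range. SPARC, a bone matrix glycoprotein, likewise did not separate the groups, at 13.50, 13.29 and 13.48 against a primary median of 13.52. RUNX2, the transcription factor that starts osteoblast differentiation, was dim in all 3 metastatic lines, at 4.51, 4.22 and 3.73, and its primary median of 4.01 was dim too. IBSP and BGLAP, which encode the mineral-binding proteins bone sialoprotein and osteocalcin, stayed under log2 5 in every metastatic line. Other bone genes were not all dim. Of 10 tested osteoblast and bone matrix genes, 3, 4 and 2 exceeded log2 5 in metastatic lines 1, 2 and 3, against a median of 5 in primary lines. Of the 10, 2 had a positive difference, against 54.7% of all genes, with a median of -0.46, and 0 passed the threshold. Leukocyte markers were near background: PTPRC, the pan-leukocyte CD45, reached at most 2.68 in the metastatic lines and 2.87 in primary lines.

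In the comparison of metastatic with primary lines, NRP1 alone passed the threshold. Of 7812 genes, 1 was higher at an adjusted p under 0.05 (0.0128%) and 0 were lower, by limma with Benjamini-Hochberg adjustment. At an unadjusted p under 0.05 there were 307 higher genes (3.93%) and 224 lower genes (2.87%), together 6.8%. Data were also simulated with independent normal noise of 1 spread per gene, pooled over metastatic lines, primary lines and tissues. On them limma recovered 45 of 67 genes changed by log2 2 and 65 of 67 changed by log2 4, with 7 false calls. The simulation held no line that departs in many genes, as metastatic line 1 did. Its counts therefore do not give the recovery in the real comparison.

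NRP1 was at 8.61, 5.35 and 7.34 in metastatic lines 1, 2 and 3. In primary lines it ran from 3.03 to 5.47 with a median of 4.01, so it was dim in most of them. The lowest metastatic line, line 2, lay above 23 of 24 primary lines, and lines 1 and 3 above all 24. NRP1 was 3.01 ± 0.50 higher (SE), a fold of 8.05, with a limma adjusted p of 0.0074. Within title prefix 2 the difference was 2.74 with an adjusted p of 0.04. It was 2.25 without metastatic line 1 (adjusted p = 0.92), 3.89 without line 2 (adjusted p = 0.00015) and 2.89 without line 3 (adjusted p = 0.11), so the call needed both lines 1 and 3. The call was also lost with the GAPDH covariate, where NRP1 differed by 2.44 with a limma adjusted p of 0.68, and in Rottweiler lines, where it differed by 2.21.

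The probe sets of NRP1 differed in what they showed. The array carried 4 for this gene, and the call rests on the brightest. A second kept probe set gave 4.02, 5.19 and 5.38 in metastatic lines 1, 2 and 3 against a primary median of 3.87 and a highest primary value of 6.70, a difference of 0.79. There metastatic line 1, the brightest on the first probe set, was dim. Both remaining probe sets were under log2 5 in every metastatic line and differed by 0.10 and -0.12. NRP2, the paralogous co-receptor, was at 8.41, 9.30 and 7.25 in the metastatic lines, against a primary median of 9.48, a difference of -0.72. Of the 10 tested neuropilins, semaphorins and plexins, 3 had a positive difference and NRP1 was the 1 that passed the test.

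OCA2 and MEIS1 followed NRP1 by p-value without passing the threshold, each with a limma adjusted p of 0.19. OCA2 was at 9.11, 6.30 and 6.68 in metastatic lines 1, 2 and 3, against 1.72 to 6.83 in primary lines with a median of 3.79. Every metastatic line lay above 22 of 24 primary lines, and the exceptions included primary line 7 at 6.49. The difference was 3.45 ± 0.76 (SE), and 2.58 without metastatic line 1. Of 14 tested pigment cell and melanosome genes, OCA2 included, 8 had a positive difference, against 54.7% of all genes, with a median of 0.17. In metastatic line 1, 4 of the 14, OCA2 among them, lay above every primary line, beside 8.86% of all genes. There 1 of the 14 lay below every primary line, beside 10.7% of all genes. The list mean, OCA2 included, lay above 23, 22 and 17 primary lines in metastatic lines 1, 2 and 3. OCA2 was a marker named beforehand for these lines, so these ranks do not speak for the other members. MEIS1 was at 7.09, 3.03 and 8.07 in the metastatic lines, so line 2 was dim and did not share the level of lines 1 and 3. Primary lines ran from 2.46 to 7.23 with a median of 2.96, and primary line 7 alone among them exceeded log2 5. The difference was 2.93 ± 0.64 (SE), and 2.42 without metastatic line 1. MEIS1 passed the filter on dim probe sets only through the metastatic lines, as did 47 of the 7812 genes, so it could enter the test only by being high there. None of the genes set apart in the next paragraph entered in that way.

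In 42 genes (0.538% of those tested) all 3 metastatic lines lay above at least 22 of 24 primary lines, and in 17 genes (0.218%) they lay below as many. Such genes are called set apart below. The rule selects for separated groups, so no test is added, and the differences ran from 0.34 to 3.45 upward and from -3.36 to -0.25 downward. Of the 42 genes, 40 were over log2 5 in all 3 metastatic lines. Of the 17 genes, 7 were over log2 5 in at least 22 primary lines, and the others were dim in many lines of either group. Primary line 7 was the commonest exception, lying with the metastatic lines in 24 of these 59 genes.

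TLE1, a Groucho-family transcriptional corepressor, was among the largest upward differences, at 3.06. It was at 11.01, 9.88 and 11.80 in metastatic lines 1, 2 and 3, against 4.41 to 11.59 in primary lines with a median of 7.998. Primary line 7 held that highest value, and the other 23 primary lines lay below every metastatic line. TNFSF13, which encodes the B-cell survival ligand APRIL, was at 5.42, 5.19 and 6.17 in the metastatic lines against a primary median of 3.75. OSBPL1A, an oxysterol-binding protein of endosomes, was at 8.83, 7.92 and 9.18 against a primary median of 7.17. NOVA1, an RNA-binding splicing regulator best known from neurons, was at 8.47, 8.08 and 7.94 against a primary median of 6.54. In all 4 genes each metastatic line was above at least 23 of 24 primary lines.

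Several of the other upward genes encode metabolic enzymes. AMD1, which makes the aminopropyl donor for polyamines, was at 10.24, 11.10 and 10.49 in the metastatic lines against a primary median of 9.45. MOCOS, the molybdenum cofactor sulfurase that activates xanthine dehydrogenase, was at 6.97, 7.40 and 7.15 against a primary median of 5.80. HACD3, a dehydratase of very-long-chain fatty acid elongation, was at 8.93, 8.97 and 9.33 against a primary median of 7.74. These 3 genes differed by 1.36, 1.67 and 1.61, with limma adjusted p-values of 0.57, 0.57 and 0.65. For HACD3 a second probe set gave a difference of -0.01, and for JMJD1C, named next, -0.63. The 15 largest upward differences were ranked only among set-apart genes over log2 5 in all 3 metastatic lines. Those not yet named were TREX1, a DNA exonuclease, SYNJ1, a phosphoinositide phosphatase, and JMJD1C, a Jumonji-domain protein. PLEKHA8, a glycolipid transfer protein, HINT2, a mitochondrial nucleotide hydrolase, and MPDZ, a scaffold with many PDZ domains, completed them. The differences from TREX1 to MPDZ in this list lay between 1.27 for MPDZ and 1.63 for TREX1.

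In 3 genes (0.0384%) the metastatic lines lay above all 24 primary lines, and in 0 genes below all. MPDZ was one, at 11.60, 10.95 and 11.28 against a highest primary value of 10.93. USP34 and CLYBL, named after their values were seen, were the others. USP34, a deubiquitinase, was at 8.68, 8.52 and 8.74 against primary lines from 7.42 to 8.44. CLYBL, a mitochondrial lyase that clears citramalyl-CoA, was at 8.17, 8.57 and 8.04 against primary lines from 4.08 to 7.99. In each of the 3 genes the lowest metastatic and the highest primary line lay close together.

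**Figure D2:**
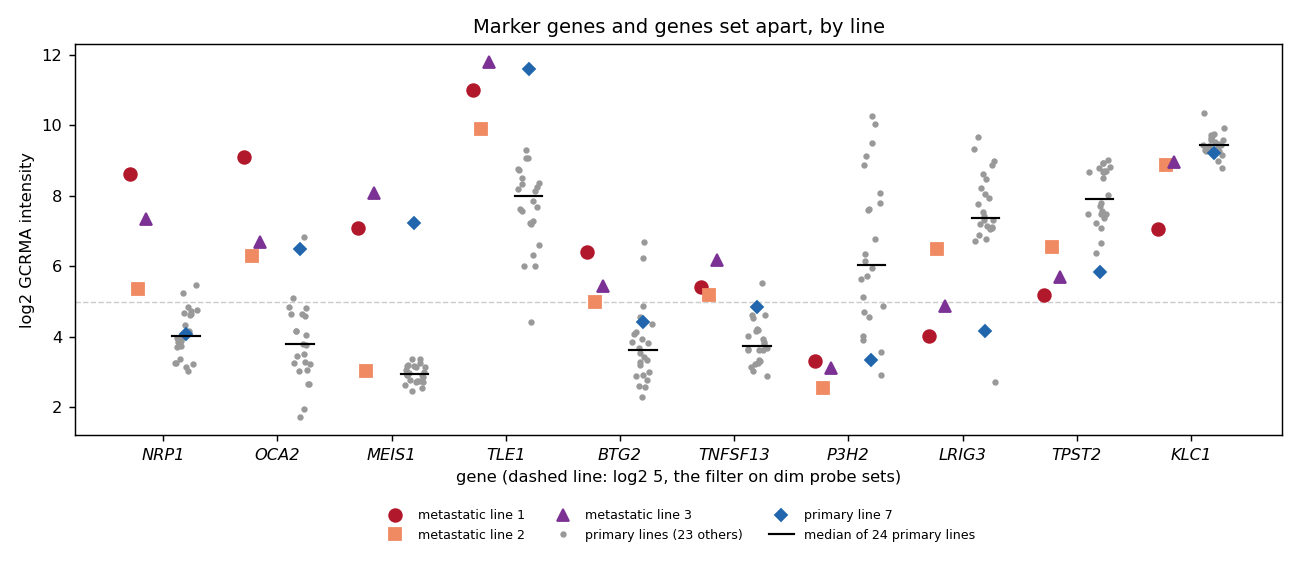
Log2 GCRMA intensity of the marker genes NRP1, OCA2 and MEIS1 and of 7 set-apart genes. For each gene the 3 metastatic lines stand left and the 24 primary lines right, with primary line 7 as a blue diamond and the primary median as a bar; the dashed line marks log2 5. NRP1 lay above 23 of 24 primary lines in every metastatic line, MEIS1 in metastatic line 2 (3.03) lay among the primary lines, and TLE1 in primary line 7 (11.59) lay between metastatic lines 1 and 3.

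Downward, the largest difference was that of P3H2, a prolyl 3-hydroxylase that modifies collagen chains, at -3.36 ± 1.24 (SE). It was dim in all 3 metastatic lines, at 3.30, 2.56 and 3.11, against 2.92 to 10.25 in primary lines with a median of 6.04. Of the primary lines, 23 of 24 lay above every metastatic line. LRIG3, a leucine-rich repeat membrane protein that modulates receptor signalling, was at 4.04, 6.50 and 4.88 in the metastatic lines against a primary median of 7.38. TPST2, a Golgi enzyme that sulfates tyrosines of secreted proteins, was at 5.18, 6.55 and 5.71 against a primary median of 7.92. LRP12, a member of the low-density lipoprotein receptor family, was at 4.96, 4.72 and 4.78 against a primary median of 5.99.

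KLC1, a kinesin light chain, had the smallest p among the lower genes, with a difference of -1.15 and a limma adjusted p of 0.19. It was at 7.06, 8.87 and 8.95 in the metastatic lines against 8.78 to 10.34 in primary lines, and line 1 alone lay below all 24. Without metastatic line 1 the difference was -0.53. Its 3 other kept probe sets gave differences from -1.79 to 0.37. GNMT, a glycine methyltransferase, MLX, a partner of Max-like transcription factors, and HSPA5, the endoplasmic reticulum chaperone BiP, completed the set-apart genes that were bright in primary lines. HSPA5 differed by -0.25 only, at 13.53, 13.64 and 13.63 in the metastatic lines against a primary median of 13.86. SOX9, the chondrogenic transcription factor, was set apart downward but dim, at 2.83, 2.79 and 2.82 against a primary median of 3.87.

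In single genes, metastatic lines 1 and 3 shared a pattern that was mostly missing from metastatic line 2. With line 2 left out, limma called 13 genes higher (0.166%) and 11 lower (0.141%) at an adjusted p under 0.05, whereas leaving out line 1 or line 3 left 0 calls, with 143 and 504 genes at an unadjusted p under 0.05. In all 24 genes metastatic line 2 lay inside the primary range. It lay outside that range in only 1.89% of all genes, so this does not distinguish the 24. In 3 of them, NRP1, OCA2 and KLC1, line 2 lay beyond at least 22 of 24 primary lines on the same side as lines 1 and 3. Lines 1 and 3 both lay above every primary line in 7 of the 13 higher genes, beside 54 of all 7812. They both lay below every primary line in 7 of the 11 lower genes, beside 36 of all 7812. Other pairs shared such genes too: lines 1 and 2 shared 16 above and 6 below, and lines 2 and 3 shared 15 and 4. Line 2 had only 92 genes above and 56 below every primary line to share. Lines 2 and 3 also correlated most highly of the metastatic pairs, at 0.920, so the pattern concerns these genes and not whole profiles. Of the 13 higher genes, 6 passed the filter on dim probe sets only through the metastatic lines: MEIS1, DES, SLC14A1, C6, SOX5 and TMEM176A. Their calls add nothing to their levels, since they could enter the test only by being high there. The genes called are described as such, since leaving out each line was planned but line 2 was singled out by its result.

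The higher genes included contractile and cytoskeletal ones. PDLIM3, a muscle protein of the actin-anchoring Z-disc, was at 12.53, 2.31 and 9.997 in metastatic lines 1, 2 and 3 against a primary median of 2.51. DES, the muscle intermediate filament desmin, was at 5.78, 3.68 and 9.52 against a primary median of 3.77. KRT18, a keratin of simple epithelia, was at 13.51, 2.22 and 7.02 against a primary median of 2.60. Metastatic line 2 was dim in all 3 genes.

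Regulators and membrane proteins made up the rest of the higher genes. SLC14A1, a urea transporter, was at 8.28, 2.70 and 11.18 against a primary median of 2.51. SOX5, a SOX transcription factor of cartilage and neural crest, was at 7.31, 2.25 and 5.75 against a primary median of 2.34. ZFPM2, a GATA cofactor, was at 8.17, 4.53 and 8.75 against a primary median of 3.58. C6, a terminal complement component, was at 12.41, 1.65 and 5.54, and no primary line exceeded 2.94. TNFRSF14, the HVEM receptor of lymphocyte signalling, and PALMD, the paralemmin relative palmdelphin, were likewise highest in line 1, as was TMEM176A, a membrane protein at 9.29 in line 1 and only 3.49 in line 3.

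The lower genes were bright in metastatic line 2 and in most primary lines. RGCC, a regulator of cell cycle and complement response, was at 3.81, 11.46 and 3.92 in metastatic lines 1, 2 and 3 against a primary median of 11.50. OMD, the bone keratan sulfate proteoglycan osteomodulin, was at 2.04, 9.93 and 2.10 against a primary median of 9.56. IRX5 and IRX3, neighbouring Iroquois homeobox genes of limb and skeletal patterning, were at 3.03, 8.54 and 2.01 and at 2.69, 6.54 and 3.19. Their primary medians were 8.65 and 6.60. STEAP1, a metalloreductase-family membrane protein, was at 2.95, 10.12 and 5.00 against a primary median of 9.85. EPDR1, a lysosomal lipid-binding protein, was at 3.71, 10.10 and 4.72 against a primary median of 9.89. The others were GNG2, a G-protein gamma subunit, TMTC1, an O-mannosyltransferase, THOP1, a peptidase, TMEM43, an inner nuclear membrane protein, and KLC1. For TMEM43 another probe set ran the other way, with a difference of 0.51.

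Primary line 7 carried much of the same pattern. It was the highest primary line in 6 of the 13 higher genes and the lowest in 6 of the 11 lower genes. Its values were 9.99 for PDLIM3, 9.80 for SLC14A1, 9.03 for KRT18 and 8.02 for ZFPM2, but 3.62 for DES and 1.77 for C6. Among the lower genes it stood at 2.12 for IRX5, 2.24 for OMD and 5.04 for STEAP1. Over all genes, metastatic lines 1 and 3 both lay beyond exactly 23 of 24 primary lines in 201 genes, and primary line 7 was the single exception in 88 of them. The next most frequent exception was primary line 4, in 24 genes. With primary line 7 left out, limma called 8 genes higher and 1 lower, an alternative chosen after seeing the data. The 8 were NRP1, MEIS1, SLC14A1, OCA2, PDLIM3, TLE1, ZFPM2 and NR1H4, a bile acid receptor, and the lower gene was BACE2, a membrane protease.

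**Figure D3:**
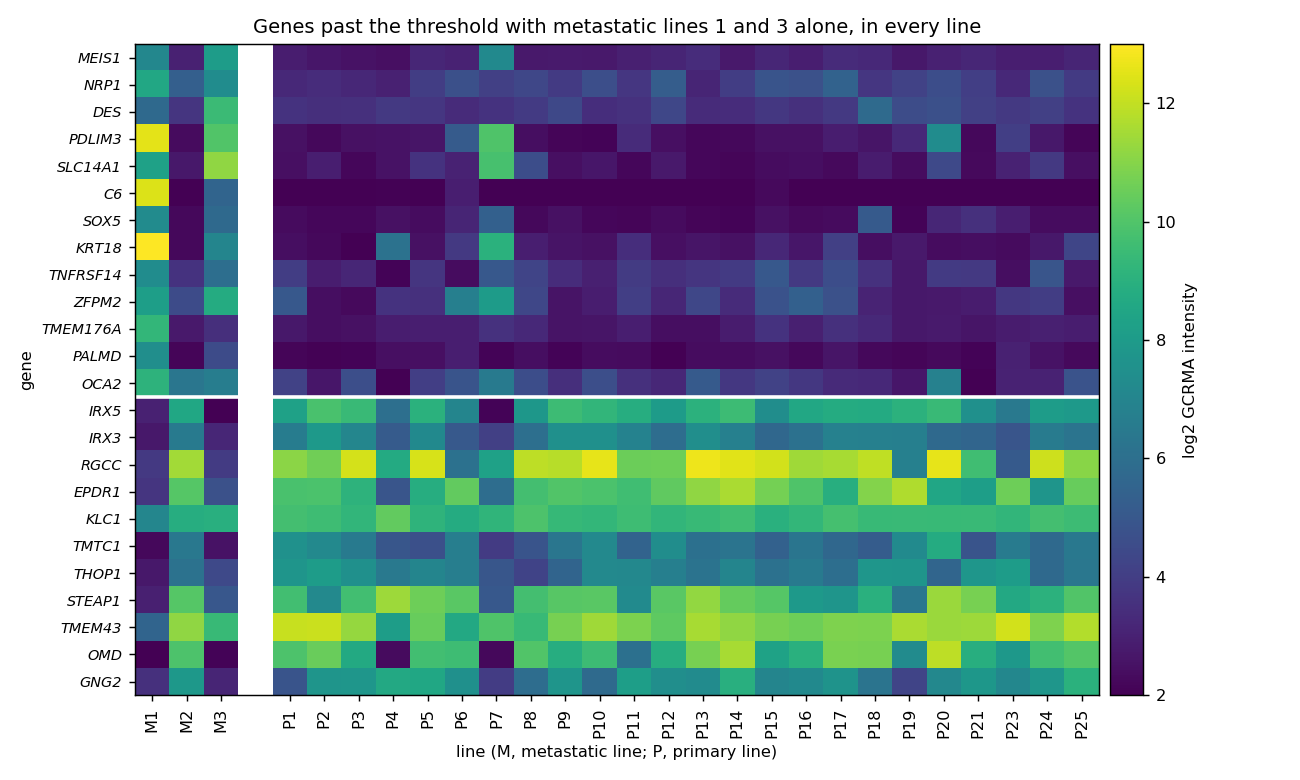
Log2 GCRMA intensity (colour) of the 24 genes called by limma when metastatic line 2 was left out, in the 3 metastatic lines (M, left) and the 24 primary lines (P, right). Higher genes stand above the white line and lower genes below it, each ordered by p. Metastatic line 2 lay within the primary range throughout, as in most genes tested, and near its edge for NRP1, OCA2 and KLC1. Primary line 7 lay near metastatic lines 1 and 3 in genes such as MEIS1 (7.23), SLC14A1 (9.80) and OMD (2.24).

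Single homeobox genes that mark position along the body split the same way, but their list as a whole did not. HOXA5, an anterior HOX gene, was at 11.31, 8.73 and 11.08 in metastatic lines 1, 2 and 3, and lines 1 and 3 lay above all 24 primary lines, whose highest value, 10.95, was that of primary line 7. HOXA4, its neighbour, was at 7.38, 4.49 and 7.62, with lines 1 and 3 again above all 24. MEIS2, the paralogue of MEIS1, was at 12.89, 9.04 and 11.20 against a primary median of 9.77. The genes of limb mesenchyme ran the other way. PRRX1, a paired-related homeobox gene of limb bud mesenchyme, was at 8.31, 13.04 and 6.20 against a primary median of 11.84, and primary line 7 was the lowest primary line at 2.78. SHOX2, which patterns proximal limb bones, was at 3.39, 5.33 and 1.38 against a primary median of 5.19, with primary line 7 again lowest at 1.24. PRRX2, the paralogue of PRRX1, was at 4.81, 8.91 and 5.07 against a primary median of 8.62. Of the 13 tested HOX, MEIS, PBX and TBX position genes, 6 had a positive difference, against 54.7% of all genes, and 0 passed the test. The single-line medians of that list were -0.92, -0.09 and 0.80 in metastatic lines 1, 2 and 3, so lines 1 and 3 went opposite ways. Above the primary mean were 6, 6 and 7 of the 13.

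Single mesenchymal matrix and adhesion genes, named after their values were seen, were low in lines 1 and 3 and not in line 2. The lists they belong to did not move as a whole. Of 16 tested collagen chains, 8, 7 and 10 lay above the primary mean in metastatic lines 1, 2 and 3. Of 15 genes of epithelial-mesenchymal transition and mesenchymal adhesion, 6, 9 and 6 did. TWIST1, a transcription factor of mesenchymal identity and epithelial-mesenchymal transition, was at 2.31, 7.20 and 2.83 in metastatic lines 1, 2 and 3. In primary lines it ran from 3.34 to 8.78, so lines 1 and 3 lay below all 24. COL6A3, a collagen VI chain, was at 3.30, 10.86 and 3.80 against a primary median of 10.84. HAPLN1, the link protein that ties hyaluronan to aggrecan, was at 2.85, 10.69 and 2.46 against a primary median of 10.68. THY1, a glycoprotein of stromal cells, was at 2.88, 9.94 and 7.02 against a primary median of 9.66. None of these 4 genes passed the test over all 3 lines. The lowest unadjusted p by limma was 0.0068, for HAPLN1, with a difference of -4.83.

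Genes known from osteosarcoma metastasis and invasion mostly had lower levels in the metastatic lines, without passing the test. Of 26 tested, 5 had a positive difference, against 54.7% of all genes, and 0 passed the threshold. The median over the list was -0.23. EZR, the ezrin membrane-cytoskeleton linker long tied to osteosarcoma spread, was at 12.02, 11.54 and 11.93 against a primary median of 11.79. S100A4 and ANXA2 also lay inside the primary range in every metastatic line. ACKR3, a scavenging chemokine receptor, was at 5.63, 10.21 and 2.54 against a primary median of 10.44, and line 3 lay below every primary line. IGF1R, the insulin-like growth factor receptor, was at 3.08, 8.05 and 6.02, and lines 1 and 3 lay below every primary line. These low values again belonged to lines 1 and 3, since metastatic line 2 had 19 of the 26 genes above the primary mean, against 8 each in lines 1 and 3. Over all genes the shares above the primary mean were 51% in line 1, 52.6% in line 2 and 60.6% in line 3.

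Hypoxia and glycolysis genes all had negative differences, none past the threshold. Of 31 tested, 0 had a positive difference, against 54.7% of all genes, and the median was -0.81, against 0.05 over all genes. Lower at an unadjusted p under 0.05 by limma were 10 of the 31, beside 2.87% of all genes, and 0 passed after adjustment. The lines contributed unequally: their median differences from the primary mean over the list were -1.45, -0.12 and -0.59 in metastatic lines 1, 2 and 3. Without metastatic line 1, whose GAPDH control difference stood outside the primary range, the median of the list was -0.35. It was -0.30 with the GAPDH covariate and -0.19 in Rottweiler lines.

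The members show the same order of lines. EPAS1, which encodes the hypoxia factor HIF-2 alpha, was at 2.85, 5.74 and 2.34 in metastatic lines 1, 2 and 3 against a primary median of 6.77, and lines 1 and 3 lay below every primary line. SLC2A3, the glucose transporter GLUT3, was at 5.33, 9.07 and 6.69 against a primary median of 9.75, with lines 1 and 3 again below all 24. TPI1 and ALDOA, glycolytic enzymes, were below every primary line in line 1 alone, at 9.17 and 11.02, while lines 2 and 3 stayed inside the range. SLC2A1, the glucose transporter GLUT1, ran the other way in line 1, at 12.31, above all 24 primary lines, while lines 2 and 3 were at 8.65 and 6.83. ADM, a hypoxia-induced vasoactive peptide, was at 10.41, 12.08 and 10.68 against a primary median of 13.23. LOX, the collagen cross-linking oxidase, was at 8.24, 9.53 and 7.08 against a primary median of 10.93. All 3 metastatic lines lay under the primary median in both. 

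**Figure D4:**
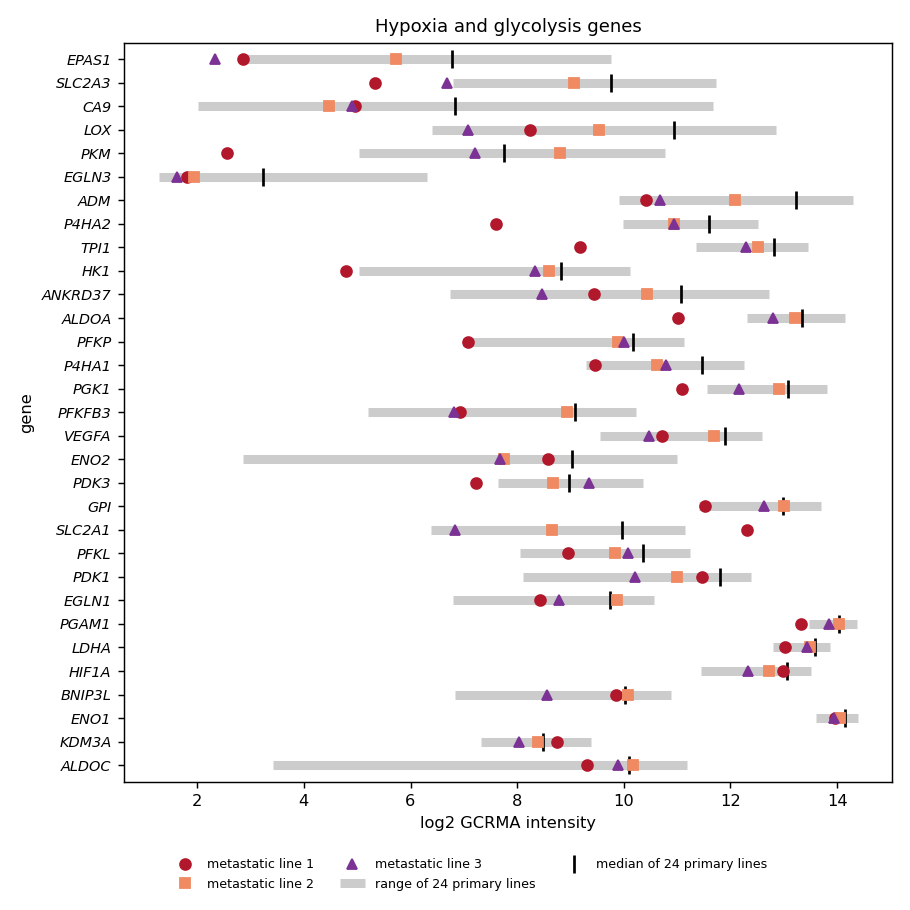
Log2 GCRMA intensity of the 31 tested hypoxia and glycolysis genes, ordered by the difference of metastatic minus primary lines. Coloured symbols are the 3 metastatic lines, grey bars the range of 24 primary lines and black ticks their median. All 31 differences were negative, and metastatic line 1 lay below all primary lines in 10 of them, beside 10.7% of all genes tested. Metastatic line 2 lay nearest the primary mean of the 3 (median difference over the list -0.12), with a list mean above 7 of 24 primary lines.

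Other metabolic lists leaned upward by small amounts. Of 36 tested respiratory chain genes, 31 had a positive difference, against 54.7% of all genes, with a median of 0.22, and the single-line medians were 0.40, 0.15 and 0.27. Of 19 cholesterol synthesis genes, 17 had a positive difference, with a median of 0.43, which was 0.15 without metastatic line 2. Here lines 2 and 3 led, with medians of 0.73 and 0.65 against 0.07 in line 1. HMGCS1, an early enzyme of the pathway, was at 12.18, 12.90 and 11.97 in the metastatic lines against a primary median of 11.55, a difference of 0.94, but its 2 other kept probe sets gave -0.34 and -0.02. INSIG1, the sterol sensor that restrains it, was at 9.17, 11.98 and 11.31 against a primary median of 10.64. In both lists 0 genes passed the threshold.

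Among target genes of p53, BTG2 and TIGAR were set apart. Of 14 tested, 10 had a positive difference, against 54.7% of all genes, and 2 were set apart upward beside 0.538% of all genes. BTG2, an antiproliferative p53 target, was at 6.41, 4.99 and 5.45 in metastatic lines 1, 2 and 3 against a primary median of 3.62. TIGAR, a fructose bisphosphatase that limits glycolysis, was at 9.22, 9.15 and 9.002 against a primary median of 8.19. CDKN1A, the p21 cell-cycle inhibitor, was at 13.56, 12.79 and 11.54 against a primary median of 11.88, so line 3 did not follow. MDM2, the ligase that degrades p53, was at 12.45, 12.23 and 11.86 against a primary median of 11.66. None of the 14 passed after adjustment by limma, and their median of 0.27 was 0.07 with no filter on dim probe sets and 0.42 without metastatic line 2.

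Cell-cycle genes did not separate the groups. Of 29 tested G2/M genes, 18 had a positive difference, and the single-line medians were -0.82, -0.36 and 1.93, so metastatic line 3 was high and lines 1 and 2 were low. TOP2A, a topoisomerase of dividing cells, was at 9.001, 9.004 and 11.51 in the metastatic lines, against 4.05 to 12.77 in primary lines. Among osteosarcoma driver genes, MYC was at 8.02, 8.46 and 7.80 against a primary median of 8.46. NF1, the RAS-inhibiting tumour suppressor, was at 10.23, 9.17 and 9.86, and lines 1 and 3 lay above every primary line. Its difference was 1.35 with a limma unadjusted p of 0.0062, but its other kept probe set gave -0.39. Of 22 tested driver and copy-number genes, 0 passed after adjustment.

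Metastatic line 1 had an expression profile of its own, with antigen presentation and complement genes high. Of the 6 tested class II genes, 5 lay above every primary line there, as did 8.86% of all genes. HLA-DRB1, an MHC class II beta chain, was at 11.79, 2.39 and 2.01 in metastatic lines 1, 2 and 3 against a primary median of 2.27. DLA-DRA, its alpha chain partner, was at 9.54, 2.27 and 1.62, and CD74, the invariant chain, at 9.53, 3.71 and 2.75. The highest primary values of these 3 were 9.17, 8.89 and 9.17, so single primary lines carried class II transcripts as well. The median difference over the 6 tested class II genes was 1.83, and without metastatic line 1 it was -0.28. Leukocyte markers stayed dim in line 1. Of the 15 monocyte and macrophage genes tested, 0 lay above the primary range there, beside 8.86% of all genes, and 0 exceeded log2 5. Their mean of 2.68 in line 1 still lay above 20 of 24 primary lines, with 11 of the 15 over the primary mean. At such dim levels the array can hardly order the lines. CSF1R, SPI1 and PTPRC were at 2.25, 2.43 and 2.68 in line 1.

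C3, the central complement component, was at 13.50, 2.40 and 2.09 in the metastatic lines, and CFI, a complement protease, at 11.51, 6.03 and 6.79. Line 1 lay above all primary lines in both. IDO1, the interferon-induced tryptophan-degrading enzyme, was at 10.63, 3.95 and 3.66 against a highest primary value of 5.50. Other genes far above every primary line in line 1 alone were LOC477072, GPM6A, a neuronal membrane glycoprotein, TMEM176A and SLC39A8, a zinc and manganese importer. Their gaps to the nearest primary line ran from 5.23 for SLC39A8 to 6.83 for LOC477072. IDO1, LOC477072, GPM6A and TMEM176A passed the filter on dim probe sets only through the metastatic lines. These genes could thus enter the test only by being high there. Interferon response genes as a list were high in 2 lines, with single-line medians of 0.95, -0.41 and 0.82, and 18 of 22 had a positive difference.

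Epithelial genes were also present in metastatic line 1. EPCAM, the epithelial adhesion molecule, was at 11.34, 1.89 and 2.68 in metastatic lines 1, 2 and 3, but single primary lines reached 12.19. KRT18 was described above, and DSP, the desmosomal plakin desmoplakin, was at 6.88, 3.38 and 3.08. The genes lowest in line 1 alone encode matrix and secretory proteins. COL6A1, a collagen VI chain, was at 4.15, 11.67 and 10.60 against a lowest primary value of 8.81. SERPINH1, the collagen chaperone HSP47, was at 4.59, 9.85 and 10.01 against a lowest primary value of 8.28. RNH1, a ribonuclease inhibitor, RAB1B, a secretory pathway GTPase, and MFGE8, a lactadherin, were the others, with gaps from 3.53 to 4.08. At the same time COL3A1, the type III collagen chain, was at 14.77 in line 1, above 21 of 24 primary lines.

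**Figure D5:**
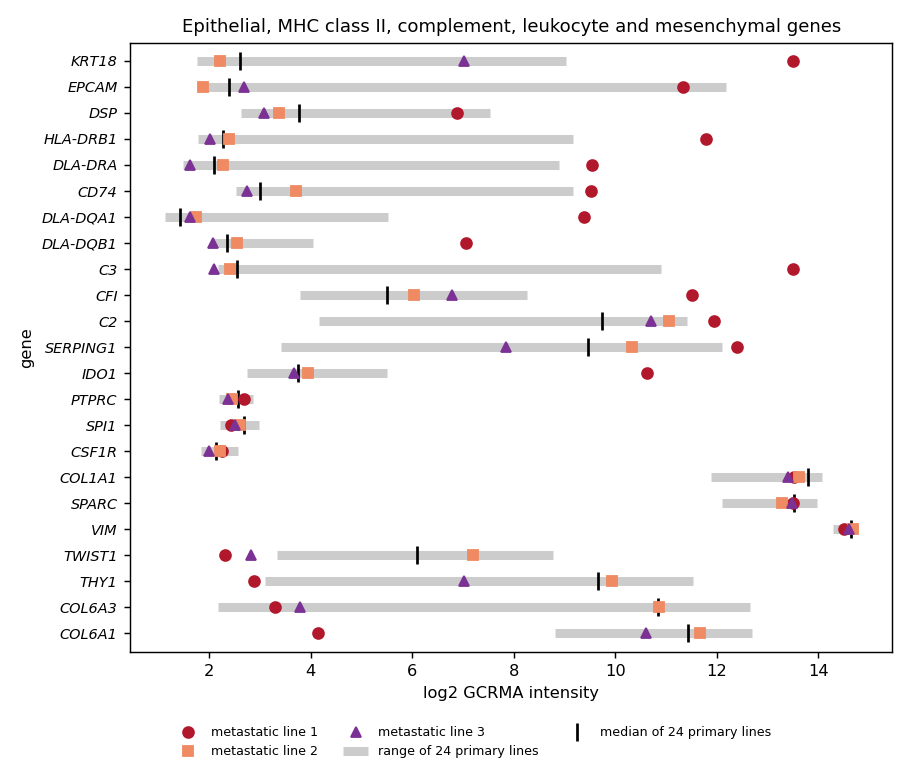
Log2 GCRMA intensity of epithelial, MHC class II, complement, leukocyte and mesenchymal genes chosen after their values were seen. Coloured symbols are the 3 metastatic lines, grey bars the range of 24 primary lines and black ticks their median. Metastatic line 1 lay above the primary range for KRT18 (13.51), HLA-DRB1 (11.79) and C3 (13.50) and below it for COL6A1 (4.15), while the leukocyte genes PTPRC, SPI1 and CSF1R stayed under 3 in all metastatic lines.

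Single smooth muscle genes were high in metastatic line 3. Its mean over the 12 tested smooth muscle and pericyte genes lay above all 24 primary lines, against 18 for line 1 and 12 for line 2. That mean was 10.41 against a highest primary mean of 10.14, with DES included. DES passed the filter on dim probe sets only through the metastatic lines, and the rank above all 24 depended on it. DES was at 9.52 in line 3, with a gap of 3.70 to the nearest primary line. The rank is therefore not a result about the list as a whole. MYLK, the myosin light chain kinase, was at 12.03, 9.08 and 13.25 in metastatic lines 1, 2 and 3, and KCNMB1, the smooth muscle subunit of a calcium-activated potassium channel, at 2.29, 3.74 and 8.12. Primary line 7 was high in both, at 13.02 and 5.95, the highest primary values. PTGDS, a prostaglandin D synthase, was at 9.01 in line 3 against a highest primary value of 6.15, and EREG, an EGF-family ligand, was at 9.50 against 7.66. EREG, like DES, passed the filter on dim probe sets only through the metastatic lines. RASL11A, a small GTPase, was at 12.79 in line 3 and 10.81 in line 1. Below all primary lines in line 3 alone were CHMP4A, a membrane-scission protein, LOC480264, MYLIP, a ligase that degrades the LDL receptor, BCL6, a transcriptional repressor, and ACKR3, with gaps from 0.83 to 1.32.

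Metastatic line 2 was the least distinct. KCNF1, a potassium channel subunit, had the largest gap of any gene in which line 2 alone lay above the primary range, at 1.10, with 8.07 in line 2 against a highest primary value of 6.97. NTN4, a laminin-related netrin, was at 10.33 and PPL, the plakin periplakin, at 11.21, with gaps of 0.84 and 0.62. LOC609874 and BPI, a bactericidal protein, followed. HYI, a putative hydroxypyruvate isomerase, PTK7, a Wnt co-receptor pseudokinase, P3H2, PDIA5, a disulfide isomerase, and CCDC28B, a ciliary regulator, were the genes furthest below. No gap below exceeded 0.79. In line 1 the corresponding gaps of the 5 leading genes below were at least 3.53.

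In tumour tissue MEIS1 and OCA2 were mostly near the primary-line level, and NRP1 was somewhat higher. NRP1 was at 4.17 to 6.72 in the 6 tissues, with a median of 5.00, against a median of 4.01 and a highest value of 5.47 in primary lines. It lay under metastatic lines 1 and 3 in every tissue, but metastatic line 2, at 5.35, lay inside the tissue range. MEIS1 did not pass 3.63 in any tissue, and OCA2 had a tissue median of 3.07. Tissue holds stroma and blood vessels, and all 6 tissue arrays carried title prefix 3, which 2 primary line arrays and no metastatic line shared.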

How the data were processed

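Expression was measured on 34 Affymetrix Canine_2 arrays of 31 dogs. The deposited values are intensity on a linear scale. Per the submitters' processing notes GCRMA made them, with version and settings not given in the sources used here. Log2 of each deposited value was taken here, and both line arrays of 1 dog were averaged. Of 43035 probe sets, 175 were controls, 29254 had 1 gene symbol, 439 had several and 13167 had none or were not listed. Probe sets over log2 5 on at least 3 of 33 columns were kept, and the one with the highest mean stood for each of 7812 genes. Symbols are those of the platform annotation, and 27680 matched the RefSeq gene table. The 3 groups were fitted in 1 model with limma 3.58.1 in R 4.3.3 (lmFit and eBayes), and p-values for metastatic minus primary lines were adjusted by Benjamini-Hochberg over all genes. Array-level values used an exact two-sided permutation test over 2925 splits. Array number limits the precision: 3 metastatic lines against 24. No label says that samples of 1 group share an animal, beyond the averaged pair.

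The members, gene lists, alternatives and tests were chosen with earlier results of these data known. Named genes were the markers, called genes, the 15 set-apart genes of largest difference in each direction that were bright, the 5 leading genes of each line and direction, and the 3 largest differences and set-apart members of each list. Genes called in other fits and further list members were named after their values were seen. The fit was tested on simulated data. Alternatives covered the arrays fitted, title prefix, normalization, filter, floor, probe set, array weights, prior, breed, sex and left-out lines.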

Additional observations from a re-analysis of the deposited data

Results flagged for a closer look

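Among the 4496 kept probe sets without a single gene symbol, 2 passed the threshold when all 18479 kept probe sets were fitted with limma. They lie outside the gene-level comparison and are not listed with a gene in the annotation used here. The first was at 7.99, 5.34 and 6.87 in metastatic lines 1, 2 and 3 against a primary median of 3.60 and a highest primary value of 5.33. Its difference was 3.10 with a limma adjusted p of 0.0116, and all 3 metastatic lines lay above all 24 primary lines. The second was at 10.80, 9.29 and 6.28 in metastatic lines 1, 2 and 3 against a primary median of 3.95 and a highest primary value of 7.85. Its difference was 4.58 with a limma adjusted p of 0.022, and the lowest metastatic line lay above 23 of 24 primary lines. The called probe set of NRP1 was the only other one in that fit, with an adjusted p of 0.0116.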

How the results depend on the processing

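No paired analysis was possible because each line came from its own dog and replicate numbers are in accession order. NRP1 was called in 16 of 21 settings. Higher genes numbered 0 with a filter at log2 7 (where NRP1 was not tested), with genes represented by their most variable probe set (NRP1 0.79), in Rottweiler lines and with the GAPDH difference as a covariate, 3 with values under log2 5 set to 5, and 3 with array weights, which also called 1 lower gene. Leaving out 1 line at a time gave 0 to 13 higher and 0 to 11 lower genes, 45 to 365 genes set apart upward and 18 to 204 downward. Metastatic line 2 gave the upper ends, and without primary line 7 there were 8 higher, 1 lower, 80 set apart upward and 30 downward. Without primary line 4, 27 were set apart downward. Genes set apart upward numbered 88 in title prefix 2 and 243 in Rottweilers. Downward they numbered 58 in title prefix 2, 56 without a filter, 8 at log2 7, 7 with the floor and 174 in Rottweilers. Genes at an unadjusted p under 0.05 numbered 870 without a filter, 820 with array weights, 105 in Rottweilers, 53 with the GAPDH covariate and 143 to 816 without 1 metastatic line. In Rottweilers, without line 1, the list medians were -0.0443 for interferon response, -0.70 for MHC class II and 0.0793 for the respiratory chain, and the GAPDH 3′ minus 5′ difference was -0.11. Leaving out 1 metastatic line gave -0.28 to 3.19 for MHC class II and 0.0752 to 1.47 for the GAPDH difference. With the other probe set GNMT differed by 0.0317, HACD3 by -0.00552 and TMEM43 by 0.51. The fits without primary lines 7 and 8 and with the GAPDH covariate were chosen after seeing the data. The causes were not tested, beyond fewer lines entering the smaller fits. Probe sets under log2 5 limit what the array can order.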
